A study of Mus musculus with 18 samples.

Results

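The gene desert described here lies on chromosome 2 of the mouse (NCBI37/mm9), directly 3′ of Mtx2, at the edge of the region around HoxD that was examined by 5C. Its members are the pairs of 1 forward and 1 reverse primer with midpoints at least 10 kb apart and both EcoRI fragments inside chr2:74716489-74907778. Primers covered 44 fragments there, 22 in each direction, which make 426 pairs. These are 426 of the 4251 pairs at least 10 kb apart in the design used for embryonic stem (ES) cells, and 426 of 10068 in the longer design used for limb cells, which reaches further 5′. The 44 fragments were the same in both designs, and the 2 designs were never compared by a test.

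The series holds 18 5C libraries, 14 from mouse ES cells and 4 from limb cell lines, and asks how chromatin around HoxD folds in different states and without polycomb proteins. From the OS25 ES cell line there were 2 libraries of D3 cells, differentiated for 3 days with retinoic acid (RA) on 2 of them, and 2 of undifferentiated (UD) cells, whose labels carry the same text on differentiation and whose state is taken from their titles. The other ES libraries came from Eed-/- cells (2), Ring1B-/- cells (3), Ring1B-/- cells with reintroduced wild-type Ring1B, labelled GWT (2), Ring1B-/- cells with a Ring1B that lacks ubiquitin ligase activity, labelled G53 (1), and wild-type WTF18 cells (2). Per the study's methods, 2 clones of Eed-/- cells were grown, and the labels do not tell which clone a library came from. The wild-type libraries are titled Ring1B_WT, and the sources used here name no separate wild type for the Eed-/- clones. Loss of Eed and a difference between ES lines therefore cannot be told apart in that comparison. The labels state growth on feeder fibroblasts for all ES libraries, and the methods, which name feeders for the wild-type and mutant cells, state that they were removed. P2 and A2 (2 libraries each) are mesenchymal lines made from the posterior and the anterior distal forelimb buds of E10.5 Immortomouse embryos, and each stands for its side of the limb bud by 1 line. The study's figure legends call the second data sets biological replicates, but the sources used here do not say whether libraries of a group came from separate cultures, and p-values measure only the spread between these libraries.

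In 5C, formaldehyde-fixed chromatin is digested with EcoRI and re-ligated. A forward and a reverse primer that meet at a ligation product are joined and sequenced, so a pair's read frequency counts such products over many cells. Frequency falls with distance along the chromosome in nearly all chromatin, and departures from that decline are read as local folding. Gene deserts are long stretches without protein-coding genes, and those on either side of HoxD are known for long-range enhancers that act on Hoxd genes in the developing limb. Eed is a core subunit of Polycomb-repressive complex PRC2, which trimethylates histone H3, and Ring1B is the ubiquitin ligase of PRC1.

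The annotation bears out the name of the region. Mtx2, which encodes a metaxin of the mitochondrial outer membrane, is on the plus strand and ends at 74716488. Beyond it the window of 191 kb holds no protein-coding gene. It holds the pseudogene Gm14427 (chr2:74724429-74725063, minus strand) inside fragment mHoxD_135 and the ribosomal RNA gene n-R5s198 (chr2:74773472-74773571, minus strand) inside fragment mHoxD_146.

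The fragments that set the pattern of contacts are shown by sequence, since 5C sees the desert only where EcoRI cuts it. Each line gives the last 60 bases of a fragment on the plus strand of mm9, with its closing EcoRI site in capitals. The first 4 had the highest contact strength in ES or limb libraries, the next 4 were among the lowest, and the last 4 are the partners of the most enriched pair in ES libraries (mHoxD_146 and mHoxD_166) and in limb libraries (mHoxD_163 and mHoxD_180).
mHoxD_137 (chr2:74745380-74745439): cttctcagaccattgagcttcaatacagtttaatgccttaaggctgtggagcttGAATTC
mHoxD_135 (chr2:74731193-74731252): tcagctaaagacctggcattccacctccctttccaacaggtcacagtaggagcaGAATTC
mHoxD_153 (chr2:74806465-74806524): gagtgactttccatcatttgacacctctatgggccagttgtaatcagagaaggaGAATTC
mHoxD_156 (chr2:74818747-74818806): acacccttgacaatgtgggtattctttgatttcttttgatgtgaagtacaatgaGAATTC
mHoxD_173 (chr2:74868584-74868643): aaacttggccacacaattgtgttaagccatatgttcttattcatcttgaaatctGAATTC
mHoxD_142 (chr2:74759885-74759944): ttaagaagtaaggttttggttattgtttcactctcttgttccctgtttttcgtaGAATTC
mHoxD_136 (chr2:74731797-74731856): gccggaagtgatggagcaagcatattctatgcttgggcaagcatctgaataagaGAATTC
mHoxD_165 (chr2:74854348-74854407): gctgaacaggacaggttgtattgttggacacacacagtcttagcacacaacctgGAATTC
mHoxD_146 (chr2:74777326-74777385): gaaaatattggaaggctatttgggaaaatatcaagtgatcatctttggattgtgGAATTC
mHoxD_166 (chr2:74860601-74860660): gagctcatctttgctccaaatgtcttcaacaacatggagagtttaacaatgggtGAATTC
mHoxD_163 (chr2:74849760-74849819): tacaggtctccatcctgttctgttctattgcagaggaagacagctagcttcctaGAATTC
mHoxD_180 (chr2:74895259-74895318): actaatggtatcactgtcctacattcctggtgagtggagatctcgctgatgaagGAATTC

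Some weak fragments are short enough to be shown whole, with the EcoRI site at either end in capitals. mHoxD_174 and mHoxD_168 had, with mHoxD_165 above, the lowest strength in limb cells.
mHoxD_174 (chr2:74868638-74868825): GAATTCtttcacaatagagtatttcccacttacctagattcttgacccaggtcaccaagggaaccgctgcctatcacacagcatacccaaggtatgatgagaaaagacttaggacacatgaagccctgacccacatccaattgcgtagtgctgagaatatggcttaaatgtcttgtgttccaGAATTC
mHoxD_168 (chr2:74860942-74861233): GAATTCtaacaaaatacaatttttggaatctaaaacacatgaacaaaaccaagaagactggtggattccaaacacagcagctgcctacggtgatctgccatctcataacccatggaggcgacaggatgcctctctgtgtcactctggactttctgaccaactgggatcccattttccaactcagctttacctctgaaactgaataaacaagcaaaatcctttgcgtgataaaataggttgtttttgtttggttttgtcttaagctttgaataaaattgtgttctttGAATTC

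Matrices held 208204 to 1667605 reads in ES libraries and 465343 to 2024551 in limb libraries. The desert took 6.03% to 10.8% of the reads in ES libraries (12721 to 149632 reads) and 6.52% to 8.17% in limb libraries. GWT replicate 1 was the shallowest, and at its depth 3 reads correspond to 0.0139 reads per 1000, against 0.00176 in the deepest ES library, Ring1B-/- replicate 2. Such limits cover counting error only. Libraries of 1 group differed by far more than sampling noise (chi-square per degree of freedom of 25.1 to 214 over 10 library pairs).

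Contacts inside the desert had group means between 0.145 and 0.220 reads per 1000 reads of the run, the unit of all frequencies here. Pairs outside the desert, not matched for distance, averaged 0.105 to 0.165 in ES libraries and 0.0647 to 0.0782 in limb libraries. The mean frequency over the 426 pairs was 0.247 and 0.192 reads per 1000 in D3 cells and 0.179 and 0.136 in UD cells. It was 0.162 and 0.190 in Eed-/- cells, 0.138 and 0.163 in GWT cells, 0.145 in the G53 library, 0.171, 0.206 and 0.172 in Ring1B-/- cells, and 0.150 and 0.147 in wild-type cells. Among ES groups, both D3 libraries lay above both UD libraries, all Ring1B-/- and Eed-/- libraries lay above both wild-type libraries, and the GWT and G53 libraries lay below all Ring1B-/- libraries. In limb cells, P2 had 0.186 and 0.148 and A2 had 0.176 and 0.150, so that the lines overlapped.

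**Figure D1:**
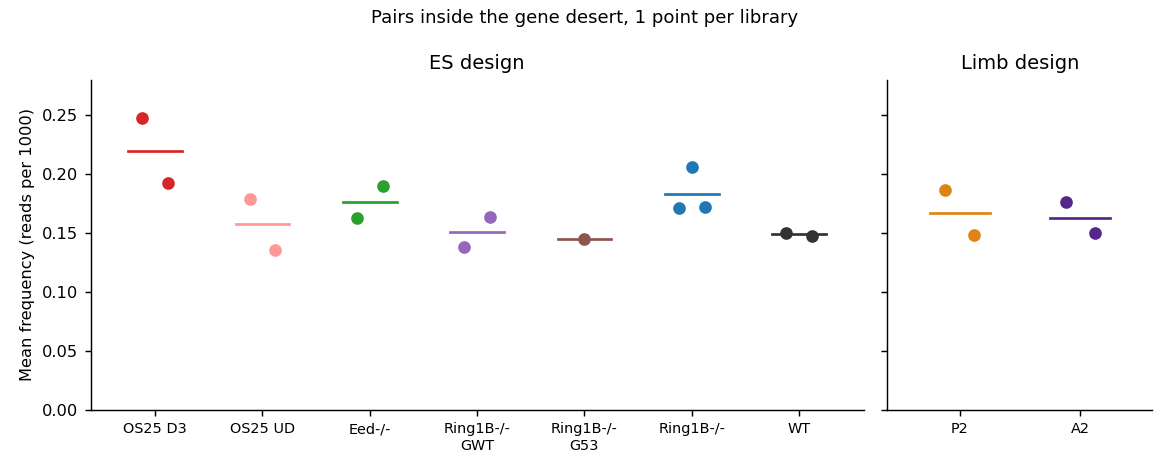
Mean 5C frequency (reads per 1000) over the 426 pairs inside the gene desert, with 1 point per library and a line at the group mean, for the ES design (left) and the limb design (right). D3 libraries sit at 0.247 and 0.192, above the UD libraries at 0.179 and 0.136, while P2 and A2 overlap.

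Many pairs had no read in ES libraries. Empty pairs numbered 50 and 112 of 426 in D3 cells and 94 and 152 in UD cells, 187 and 171 in Eed-/- cells, 208 and 172 in GWT cells, 155 in the G53 library, 140, 47 and 147 in Ring1B-/- cells, and 188 and 184 in wild-type cells. The fewest were in the deepest library, Ring1B-/- replicate 2, and the most in the shallowest, GWT replicate 1, but between these the order did not follow depth. The G53 library, with 300095 reads, had fewer empty pairs than Eed-/- replicate 1, with 1032746. Over the 14 ES libraries, 40 pairs were read in every library, 96 were empty in most libraries and 1 was empty in all. Limb maps were far fuller: P2 had 0 and 7 empty pairs, A2 had 1 and 19, and 403 pairs were read in every limb library. Signal was also more even in limb cells, where the 43 strongest pairs of a library held 21.8% to 30.01% of the desert's signal, against 30.3% to 47.5% in ES libraries. The depth of limb libraries overlapped that of ES libraries.

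Frequency declined with distance from class to class up to 80 kb in every library. The members fall into distance classes of 10 to 20 kb (44 pairs), 20 to 40 kb (89), 40 to 80 kb (134), 80 to 160 kb (150) and over 160 kb (9). In D3 cells the class means were 0.416 ± 0.0462, 0.255 ± 0.0451, 0.194 ± 0.0446, 0.169 ± 0.0267 and 0.136 ± 0.0717 reads per 1000 (SD, n = 2). In UD cells they were 0.345 ± 0.00584, 0.190 ± 0.0270, 0.133 ± 0.0476, 0.111 ± 0.0259 and 0.0626 ± 0.0149 (SD, n = 2). D3 means thus lay above UD means in every class. Past 80 kb the decline was less regular in some ES libraries: Eed-/- replicate 2 had 0.126 at 40 to 80 kb and 0.134 at 80 to 160 kb, and GWT replicate 1 had 0.0925 at 80 to 160 kb and 0.113 over 160 kb.

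Wild-type cells had 0.304 ± 0.000187 at 10 to 20 kb and 0.104 ± 0.00819 at 80 to 160 kb (SD, n = 2), and their 2 libraries were the closest of any group in desert mean. P2 cells had 0.283 ± 0.00260 and 0.134 ± 0.0316 at the same distances, and A2 cells had 0.291 ± 0.0133 and 0.129 ± 0.0218 (SD, n = 2 each). Pairs 10 to 20 kb apart were read 2.38 to 4.53 times as often as pairs 80 to 160 kb apart in ES libraries, and 1.80 to 2.64 times in limb libraries. The flattest ES library by this ratio was D3 replicate 1 and the steepest was Ring1B-/- replicate 3. Over 160 kb only 9 pairs remained, and single libraries ranged there from 0.0273 in Ring1B-/- replicate 3 to 0.186 in D3 replicate 1.

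**Figure D2:**
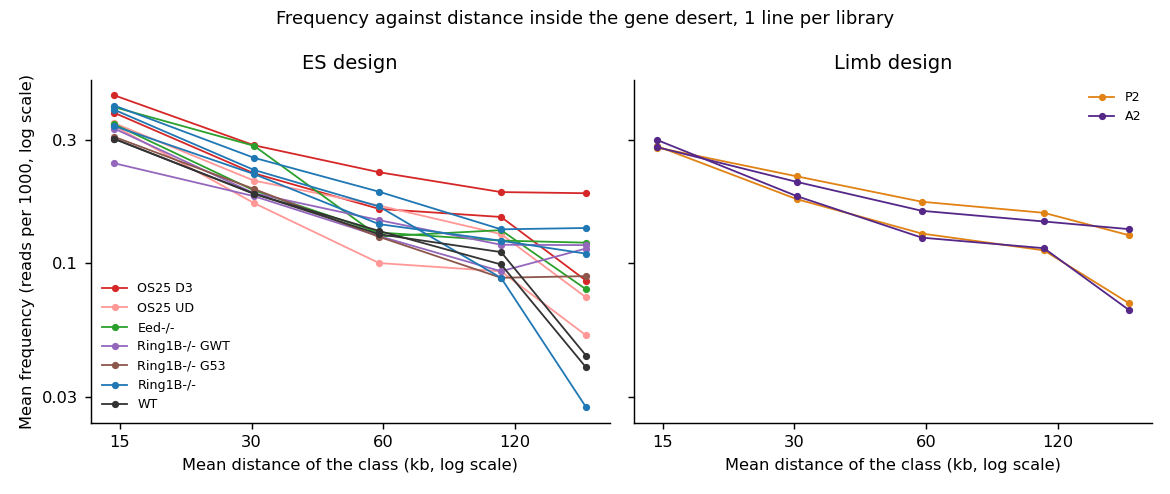
Mean frequency of desert pairs (reads per 1000, log scale) in 5 distance classes, plotted at the mean distance of each class (kb, log scale), with 1 line per library. All libraries decline up to 80 kb, D3 replicate 1 is the highest ES library in every class, and from 20 kb on the 2 upper limb lines are replicate 1 of P2 and of A2.

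A decay slope was taken for each library, the change in log2 mean frequency per doubling of distance between 10 and 160 kb. It was -0.42 and -0.47 in D3 cells and -0.48 and -0.66 in UD cells. Eed-/- cells had slopes of -0.52 and -0.61, GWT cells -0.48 and -0.50, the G53 library -0.63, Ring1B-/- cells -0.53, -0.54 and -0.72, and wild-type cells -0.51 and -0.55. Both D3 slopes were flatter than both UD slopes, by 0.13 on average (95% interval -0.12 to 0.37, limma adjusted p = 0.611). None of the 6 ES comparisons passed the threshold of an adjusted p of 0.05 for the slope of the desert, nor for any of the 4 regions with a slope (background 0% in each). The intervals were -0.29 to 0.21 for Eed-/- against wild type, -0.29 to 0.16 for Ring1B-/- against wild type, -0.12 to 0.33 for GWT against Ring1B-/-, -0.32 to 0.25 for G53 against Ring1B-/-, and -0.29 to 0.21 for UD OS25 against wild type.

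In limb cells the slope was -0.29 and -0.46 in P2 and -0.34 and -0.49 in A2. P2 minus A2 was 0.03 (95% interval -0.31 to 0.37, limma adjusted p = 0.833, background 0%). The spread went with the way a matrix names its fragments. In the first library of each line the added 5′ fragments are named by fragment spans, in the second by primer positions, and the first libraries had the flatter slopes in both lines. Within the first style P2 minus A2 was 0.04 and within the second 0.03. For the mean frequency the same differences on the log2 scale were 0.07 and -0.02. The contact pattern did not split this way throughout. Across the 426 pairs, replicate 1 of P2 and of A2 correlated at 0.73 and replicate 2 of P2 and of A2 at 0.51, while the 2 libraries of a line correlated at 0.62 in P2 and 0.56 in A2. These correlations are a description over pairs that share fragments and primers, and whether the naming style stands for a batch cannot be told from the labels.

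The ES design sets differentiated against undifferentiated cells and polycomb mutants against wild type, and the desert can be compared along both. Mean frequency over the desert was fitted with limma on log2(value + 0.02), together with all 10 pairs of regions of the design: the desert, the interval between Hoxd1 and the end of Mtx2 (chr2:74604633-74716809), HoxD with Evx2 (chr2:74498312-74604594) and the 5′ flank (chr2:74241352-74498311). On this scale D3 was above UD by 0.43 (SE 0.19, 95% interval 0.04 to 0.83), a fold of 1.35, with an unadjusted limma p of 0.035 and an adjusted p of 0.115. The desert therefore was not called, although its groups did not overlap, and 10% of region pairs were called in this comparison, the pair called being HoxD with itself. The group means were 0.220 ± 0.0392 reads per 1000 in D3 cells and 0.158 ± 0.0306 in UD cells (SD, n = 2 each). The call depended on the setting. The difference passed when libraries were scaled to pairs outside the desert (0.45, adjusted p = 0.0237) and when UD replicate 1 was left out (0.61, adjusted p = 0.0446), and it was 0.26 with an adjusted p of 0.538 without UD replicate 2.

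For the polycomb mutants no difference in the desert mean was called on the values as deposited. Eed-/- cells averaged 0.176 ± 0.0195 reads per 1000 (SD, n = 2), Ring1B-/- cells 0.183 ± 0.0197 (SD, n = 3) and wild-type cells 0.149 ± 0.00213 (SD, n = 2). Eed-/- was above wild type by 0.21 on the log2 scale (95% interval -0.19 to 0.61, limma adjusted p = 0.555, background 30%). Ring1B-/- was above wild type by 0.26 (-0.10 to 0.62, adjusted p = 0.373, background 10%). In both, no mutant library overlapped wild type. GWT cells averaged 0.151 ± 0.0178 (SD, n = 2) and were below Ring1B-/- cells by 0.25 on the log2 scale (interval of the difference -0.61 to 0.11, limma adjusted p = 0.415, background 10%). The G53 library differed from Ring1B-/- by -0.30 (-0.76 to 0.16, adjusted p = 0.471, background 10%).

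The calls of 3 of these 4 comparisons depended on what the reads were scaled to. Deposited values are shares of the run, and HoxD contacts, a strong part of the run, moved between the same groups: the HoxD mean was 0.305 and 0.374 in Eed-/- cells, 0.939, 0.555 and 0.511 in Ring1B-/- cells, 1.21 and 1.31 in GWT cells, 1.28 in the G53 library, and 1.09 and 1.30 in wild-type cells. Scaled to pairs outside the desert, which include HoxD, Eed-/- minus wild type became 0.48 (adjusted p = 0.0129), Ring1B-/- minus wild type 0.39 (adjusted p = 0.0324) and GWT minus Ring1B-/- -0.46 (adjusted p = 0.0269). G53 minus Ring1B-/- became -0.40 (adjusted p = 0.0942), which was not called. The directions stayed as above in these 4. The mean of pairs outside the desert was 0.105 and 0.127 in Eed-/- cells and 0.150, 0.129 and 0.110 in Ring1B-/- cells. It was 0.137 and 0.165 in GWT cells and 0.137 and 0.148 in wild-type cells. The calls under this scaling thus do not separate a change of the desert from a change of the reference. UD OS25 and wild-type cells, both undifferentiated, differed by 0.06 (-0.34 to 0.46, limma adjusted p = 0.947, background 0%), and by -0.00 under the other scaling. In limb cells P2 averaged 0.167 ± 0.0272 and A2 0.163 ± 0.0186 reads per 1000 (SD, n = 2 each), a log2 difference of 0.03 (-0.32 to 0.38, adjusted p = 0.930, background 0%).

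Split by distance, 0 of the 5 desert classes passed the threshold in any of the 7 comparisons (limma, adjusted over all 38 region and distance classes in ES and 51 in limb cells). In D3 against UD cells the log2 differences were 0.25, 0.39, 0.50, 0.54 and 0.85 from the shortest to the longest class, with a lowest adjusted p of 0.240. The background called was 0% in this comparison. The background was 21.1% in Eed-/- against wild type, where the lowest adjusted p of any desert class was 0.166. It was 0% in the remaining 5 comparisons.

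Ratios within a library do not depend on its scaling, and they set the desert against its neighbours. Each is a mean log2 ratio of frequencies over the classes from 10 to 80 kb. The desert was weaker than HoxD in every library as deposited. The ratio of desert to HoxD was 0.530 and 0.373 in D3 cells, 0.242 and 0.123 in UD cells, 0.619 and 0.627 in Eed-/- cells, 0.140 and 0.153 in GWT cells, 0.147 in the G53 library, 0.220, 0.450 and 0.461 in Ring1B-/- cells, and 0.169 and 0.136 in wild-type cells. P2 had 0.503 and 0.304 and A2 had 0.513 and 0.562. Tested against equality with limma, the desert was below HoxD in all groups but Eed-/-, where the log2 ratio was -0.68 (95% interval -1.26 to -0.11, adjusted p = 0.0606). Every pair was also divided by a factor for each of its fragments, called primer factors here. A factor is the fragment's mean frequency with fragments at least 120 kb away, over all libraries of a design. How much of it reflects primer efficiency and how much long-range contact was not tested. This division turned the sign of the log2 ratio in Eed-/- (0.68), D3 (0.19), A2 (0.49) and P2 (0.09) cells. It brought Ring1B-/- cells to -0.26 (adjusted p = 0.226). The call in D3 cells was lost without D3 replicate 2 (adjusted p = 0.0677) and that in A2 cells with either library alone (0.491 and 0.562).

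Against HoxD, the desert rose in D3 cells by 1.37 on the log2 scale relative to UD cells (SE 0.37, limma adjusted p = 0.0175, 20% of 5 ratios called), with no overlap between groups. The HoxD mean itself was 0.532 and 0.600 in D3 cells and 0.902 and 1.43 in UD cells, so that the denominator moved more than the desert did. The call was lost without UD replicate 2 (0.88, adjusted p = 0.132) and without D3 replicate 1 (1.11, adjusted p = 0.210). In Eed-/- cells the same ratio was higher than in wild type by 2.04 (SE 0.37, limma adjusted p = 0.000873, 40% of ratios called) and passed under every alternative run. Between these 2 groups the HoxD mean differed by -1.76 on the log2 scale and the desert mean by 0.21. In Ring1B-/- cells the ratio of desert to HoxD exceeded wild type by 1.24 (SE 0.34, limma adjusted p = 0.0186, 20% of ratios called), with HoxD at -0.87 and the desert at 0.26. That call was lost with only these 2 groups in the fit (adjusted p = 0.106), without either wild-type library (0.0688 and 0.104) and without Ring1B-/- replicate 2 (0.0680) or replicate 3 (0.0647).

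With wild-type Ring1B put back, the HoxD mean differed from Ring1B-/- cells by 0.95 on the log2 scale and the desert mean by -0.25. The ratio of desert to HoxD fell by 1.29 against Ring1B-/- cells (SE 0.34, limma adjusted p = 0.0142, 40% of ratios called). It did not pass without Ring1B-/- replicate 2 (-1.12, adjusted p = 0.0529) or without GWT replicate 1 (-1.23, adjusted p = 0.125). The G53 library had a difference of -1.28 (SE 0.43, adjusted p = 0.0597, 0% of ratios called), and passed only without Ring1B-/- replicate 1 (-1.63, adjusted p = 0.000361). UD OS25 minus wild type was 0.19 (interval -0.63 to 1.00, adjusted p = 0.775, 0% of ratios called). P2 minus A2 was -0.46 (-1.09 to 0.17, adjusted p = 0.623, 0% of ratios called). Without P2 replicate 1 it was -0.82 (adjusted p = 0.0489). Within the first naming style the difference was -0.03 and within the second -0.89, so it rested on P2 replicate 2.

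**Figure D3:**
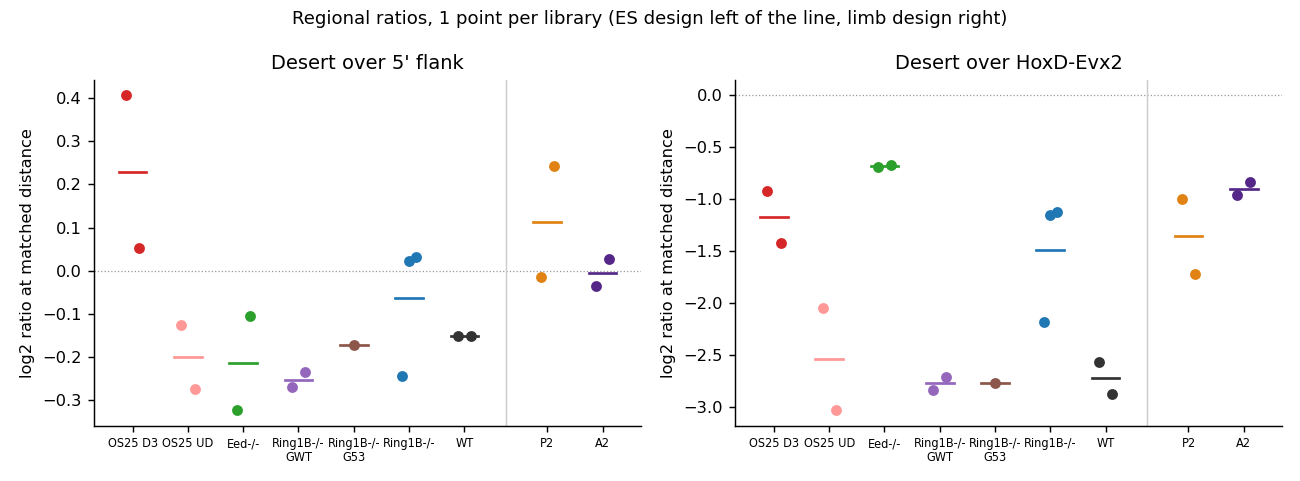
Log2 ratio of desert frequency at matched distance to that of the 5′ flank (left panel) and of HoxD with Evx2 (right panel), with 1 point per library, a line at the group mean and ES groups left of the vertical line. Desert over 5′ flank lies above 0 in both D3 libraries and below 0 in both UD libraries, and desert over HoxD is highest among ES groups in Eed-/- cells at -0.69 and -0.67.

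The 5′ flank, which lies on the far side of HoxD, moved less than HoxD and gives a comparison of 2 regions with lower means than HoxD. The ratio of desert to 5′ flank was 1.33 and 1.04 in D3 cells and 0.917 and 0.827 in UD cells. It was 0.799 and 0.929 in Eed-/- cells, 0.829 and 0.849 in GWT cells, 0.888 in the G53 library, 0.843, 1.02 and 1.02 in Ring1B-/- cells, and 0.900 and 0.901 in wild-type cells. D3 cells thus were the only ES group with both libraries above 1. D3 minus UD was 0.43 on the log2 scale (SE 0.17, 95% interval 0.07 to 0.79, limma adjusted p = 0.0607), which missed the threshold. It passed with pairs at least 20 kb apart (0.50, adjusted p = 0.0299), with extreme pairs capped (0.50, adjusted p = 0.0400), with primer factors (0.49, adjusted p = 0.00748) and without D3 replicate 2 (0.61, adjusted p = 0.0181). The 5′ flank mean was 0.152 and 0.146 reads per 1000 in D3 cells and 0.159 and 0.146 in UD cells.

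No other comparison of desert to 5′ flank passed. The differences were -0.06 (95% interval -0.43 to 0.30) for Eed-/- against wild type, 0.09 (-0.24 to 0.42) for Ring1B-/- against wild type, -0.19 (-0.52 to 0.14) for GWT against Ring1B-/- and -0.11 (-0.53 to 0.31) for G53 against Ring1B-/-. In limb cells the ratio was 0.990 and 1.18 in P2 and 0.975 and 1.02 in A2, a difference of 0.12 (-0.28 to 0.51). Against equality, desert and 5′ flank were not told apart by limma in any of the 9 groups, with adjusted p from 0.0655 in GWT to 0.970 in A2 cells. With primer factors, by contrast, the log2 ratio was below 0 in all 7 ES groups, from -1.69 in the G53 library to -1.02 in D3 cells. D3 cells were above equality by 0.37 with pairs at least 20 kb apart (adjusted p = 0.0164), by 0.41 with extreme pairs capped (adjusted p = 0.0125) and by 0.41 without D3 replicate 2 (adjusted p = 0.0461).

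Next to the desert lies the interval that holds Mtx2. The ratio of desert to interval was 1.02 and 0.922 in Eed-/- cells and 1.57 and 1.20 in wild-type cells, a fall of 0.50 on the log2 scale (SE 0.17, limma adjusted p = 0.0277). The mean of the interval was 0.154 and 0.258 reads per 1000 in Eed-/- cells and 0.107 and 0.137 in wild-type cells, and contacts within the interval were called higher in Eed-/- cells (0.64, adjusted p = 0.0333). The fall in the ratio was lost with extreme pairs capped (-0.31, adjusted p = 0.290), with primer factors (-0.34, adjusted p = 0.0945), with 2 groups in the fit (adjusted p = 0.0643), and without wild-type replicate 1 (-0.31, adjusted p = 0.187) or Eed-/- replicate 2 (-0.43, adjusted p = 0.158). In the other 6 comparisons this ratio was not called.

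Contacts inside the desert were also set against contacts of the same length that join it to the interval. This ratio was 0.683 and 0.901 in GWT cells and 1.05, 1.10 and 1.16 in Ring1B-/- cells, a fall of 0.49 on the log2 scale (SE 0.16, limma adjusted p = 0.0234). Each of the 3 Ring1B-/- libraries lay above 1, while wild-type cells had 0.990 and 0.995, D3 cells 0.862 and 0.694, UD cells 0.905 and 0.819, and Eed-/- cells 0.809 and 0.694. The fall in GWT cells did not pass with extreme pairs capped (-0.27, adjusted p = 0.188), with primer factors (-0.27, adjusted p = 0.217), without Ring1B-/- replicate 2 (adjusted p = 0.0570) or 3 (adjusted p = 0.0820), or without GWT replicate 1 (-0.29, adjusted p = 0.334). Eed-/- minus wild type was -0.41 (95% interval -0.78 to -0.03, adjusted p = 0.0626) and passed with pairs at least 20 kb apart (-0.76, adjusted p = 0.00109) and without Eed-/- replicate 1 (-0.52, adjusted p = 0.0416).

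The 2 sides of the desert were then taken apart, a view chosen after the values had been seen and given without a test. On the side next to Mtx2, frequency at matched distance was 0.376 and 0.354 reads per 1000 in D3 cells and 0.226 and 0.252 in UD cells. On the far side it was 0.297 and 0.212 in D3 cells and 0.264 and 0.204 in UD cells. D3 and UD libraries thus were separate next to Mtx2 and overlapped on the far side. Ring1B-/- cells had 0.281, 0.315 and 0.288 next to Mtx2, Eed-/- cells 0.257 and 0.318, and wild-type cells 0.205 and 0.218, again with no overlap between mutants and wild type. GWT cells had 0.185 and 0.242 and the G53 library 0.218 there, all below the Ring1B-/- libraries. On the far side Ring1B-/- cells had 0.224, 0.300 and 0.254, Eed-/- cells 0.212 and 0.274, GWT cells 0.212 and 0.225, the G53 library 0.215, and wild-type cells 0.221 and 0.211. All Ring1B-/- libraries lay above wild type on the far side too, by less, while Eed-/- overlapped wild type there. P2 had 0.277 and 0.237 next to Mtx2 and 0.197 and 0.183 on the far side, and A2 had 0.247 and 0.208 next to Mtx2 and 0.208 and 0.205 on the far side.

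Bins of 20 kb in ES cells and 24 kb in limb cells were used to place differences inside the desert. Of the 557 ES bin pairs tested, 42 lay in the desert, and of 1146 limb bin pairs 36 did. In D3 against UD cells 33 desert bin pairs were higher and 9 lower, with a median of 0.40 against 0.15 over all bin pairs. None of the 42 passed the threshold (limma, adjusted over all bin pairs, lowest adjusted p 0.808), and the background called was 0.18%. An unadjusted limma p under 0.05 was found for 1 of the 42, against 28 of all 557. Groups did not overlap in 19 desert bin pairs that were higher and 2 that were lower in D3 cells, and over all bin pairs 37.3% did not overlap.

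Bin pairs named here are, in comparisons without a call, the 2 with the largest change in each direction among those whose groups did not overlap. Between chr2:74761352-74781351 and chr2:74801352-74821351, 12 pairs averaged 0.386 and 0.295 reads per 1000 in D3 cells and 0.236 and 0.0511 in UD cells (log2 difference 1.40, SE 0.59). Between chr2:74781352-74801351 and chr2:74881352-74901351, 8 pairs averaged 0.311 and 0.277 in D3 cells and 0.178 and 0.0831 in UD cells (1.14, SE 0.64). In both, UD replicate 2 was the lower of the UD libraries. Downward, chr2:74721352-74741351 with chr2:74781352-74801351 had 0.182 and 0.246 in D3 cells and 0.262 and 0.248 in UD cells. The pair of bins chr2:74821352-74841351 and chr2:74841352-74861351 had 0.244 and 0.264 in D3 cells and 0.269 and 0.265 in UD cells, and both gaps were smaller than those upward.

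In Eed-/- against wild-type cells 25 desert bin pairs were higher and 17 lower (median 0.25, against 0.06 over all). Of these 0 passed (limma, lowest adjusted p 0.261, background 1.26%), and 2 had an unadjusted p under 0.05, against 67 of all 557. The largest such change upward was between chr2:74721352-74741351, next to Mtx2, and chr2:74841352-74861351, with 0.0822 and 0.129 reads per 1000 in Eed-/- cells and 0.0269 and 0.0401 in wild-type cells. The largest such change downward was inside chr2:74861352-74881351, where 1 fragment pair had 0.129 and 0.116 in Eed-/- cells and 0.390 and 0.309 in wild-type cells. Upward, chr2:74781352-74801351 with itself, which holds 1 fragment pair, had 0.197 and 0.357 in Eed-/- cells and 0.138 and 0.0766 in wild-type cells. Downward, chr2:74761352-74781351 with chr2:74821352-74841351 had 0.0534 and 0.0711 in Eed-/- cells and 0.116 and 0.174 in wild-type cells. The rule takes changes in both directions, so the named bin pairs do not show how the direction varied within the desert.

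In Ring1B-/- against wild-type cells 28 desert bin pairs were higher and 14 lower (median 0.23, against 0.19 over all). Of these 0 passed (limma, lowest adjusted p 0.211, background 0.359%), and 2 had an unadjusted p under 0.05, against 53 of all 557. The largest such change was inside chr2:74761352-74781351, where 1 fragment pair had 0.786, 0.622 and 1.36 reads per 1000 in Ring1B-/- cells and 0.360 and 0.123 in wild-type cells (log2 difference 1.94, SE 0.56). Inside chr2:74781352-74801351 the values were 0.381, 0.228 and 0.236 in Ring1B-/- cells and 0.138 and 0.0766 in wild-type cells. Lower in Ring1B-/- cells were chr2:74761352-74781351 with chr2:74861352-74881351 (0.0797, 0.0938 and 0.0859, against 0.135 and 0.130 in wild-type cells) and the pairs inside chr2:74801352-74821351 (0.334, 0.471 and 0.437, against 0.549 and 0.561 in wild-type cells). The changes upward were each in 1 short-range fragment pair, and those downward were smaller.

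Putting wild-type Ring1B back gave the 1 desert bin pair called in any comparison. In GWT against Ring1B-/- cells, 12 desert bin pairs were higher and 30 lower (median -0.27, against -0.07 over all). An unadjusted limma p under 0.05 was found for 5 of them, against 55 of all 557. The background called was 0.18%, which is the called desert bin pair alone. The called bin, chr2:74781352-74801351 with itself, holds the single fragment pair mHoxD_147 and mHoxD_150, 15.3 kb apart. It had no read in either GWT library, at limits of 0.0139 and 0.00493 reads per 1000 for 3 reads, and 0.381, 0.228 and 0.236 reads per 1000 in Ring1B-/- cells. Its value in GWT cells was lower than in Ring1B-/- cells (mean 0.282 ± 0.0861, SD, n = 3), with a limma adjusted p of 0.0490. Counted against the mean of these limits, which cover counting error only, the measured frequency was at least 30.02-fold lower. Of all desert pairs 10 to 20 kb apart, 34.1% and 13.6% were empty in the GWT libraries and 18.2%, 2.27% and 22.7% in the Ring1B-/- libraries, so an empty pair at this distance was not rare. The pair was read in all other libraries, with 0.323 in the G53 library, 0.375 and 0.676 in D3 cells, 0.153 and 0.970 in UD cells, 0.197 and 0.357 in Eed-/- cells, 0.138 and 0.0766 in wild-type cells, 0.317 and 0.353 in P2 and 0.277 and 0.295 in A2 cells. No desert bin pair was called with bins of 30 kb, with only these 2 groups in the fit, or without any 1 of the 5 libraries. In limb cells, where the maps were nearly full, the pair lay between 0.277 and 0.353 in all 4 libraries.

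The G53 library against Ring1B-/- cells had 14 desert bin pairs higher and 28 lower (median -0.17, against -0.18 over all), and no desert bin pair was called. Lower in G53 were chr2:74781352-74801351 with chr2:74841352-74861351 (0.0425, against 0.109, 0.136 and 0.139 in Ring1B-/- cells) and chr2:74821352-74841351 with chr2:74881352-74901351 (0.0984, against 0.304, 0.279 and 0.163 in Ring1B-/- cells). Higher in G53 were chr2:74801352-74821351 with chr2:74841352-74861351 (0.176, against 0.0957, 0.126 and 0.161 in Ring1B-/- cells) and chr2:74761352-74781351 with chr2:74841352-74861351 (0.141, against 0.130, 0.117 and 0.0934 in Ring1B-/- cells). With 1 G53 library, its spread is taken from the other groups.

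UD OS25 against wild-type cells had 27 desert bin pairs higher and 15 lower (median 0.06, against 0.11 over all). Of these 0 passed (limma, lowest adjusted p 0.720, background 0.18%), and 2 had an unadjusted p under 0.05, against 32 of all 557. Higher in UD cells were chr2:74781352-74801351 with itself (0.153 and 0.970, against 0.138 and 0.0766 in wild-type cells) and chr2:74721352-74741351 with chr2:74801352-74821351 (0.287 and 0.195, against 0.0847 and 0.150). Lower in UD cells were chr2:74761352-74781351 with itself (0.0419 and 0.0824, against 0.360 and 0.123 in wild-type cells) and chr2:74821352-74841351 with chr2:74881352-74901351 (0.239 and 0.130, against 0.261 and 0.325). Each bin named here with itself holds 1 fragment pair, and that of chr2:74781352-74801351 is the pair mHoxD_147 and mHoxD_150 given above. The named bin pairs were picked for large changes, so they do not measure how far ES cells of the same state differ in general.

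P2 against A2 cells had 19 desert bin pairs higher and 17 lower, with a median of 0.01 against -0.02 over all bin pairs. None of the 36 passed (limma, lowest adjusted p 0.9998, background 0%), and 0 had an unadjusted p under 0.05, against 22 of all 1146. The lower ones with no overlap were chr2:74879054-74903053 with itself (0.265 and 0.264 in P2, against 0.380 and 0.449 in A2) and chr2:74807054-74831053 with itself (0.327 and 0.361 in P2, against 0.410 and 0.662 in A2). The former holds 1 fragment pair and the latter 2. The higher ones were chr2:74783054-74807053 with chr2:74807054-74831053 (0.288 and 0.263 in P2, against 0.258 and 0.249 in A2) and chr2:74735054-74759053 with chr2:74759054-74783053 (0.324 and 0.321 in P2, against 0.317 and 0.320 in A2). In these 4 bin pairs the lines differed by at most 0.61 on the log2 scale.

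Single fragments differed in how often they were read with the rest of the desert. The contact strength of a fragment is the mean, over its 17 to 21 desert pairs, of frequency divided by the mean of desert pairs of the same distance class in the same library, so that 1 is the average. In ES libraries it ran from 0.294 for mHoxD_173 to 1.69 for mHoxD_137. The strongest were mHoxD_137 (range over 14 libraries 1.10 to 2.43), mHoxD_135 (mean 1.61, range 1.03 to 2.57) and mHoxD_153 (mean 1.58, range 1.05 to 2.10), each above 1 in all 14 libraries. The weakest were mHoxD_173 (range 0.111 to 0.554), mHoxD_142 (mean 0.366, range 0.0997 to 0.602) and mHoxD_136 (mean 0.395, range 0.126 to 0.675), each below 1 in all 14. These 6 were picked for their means over the same libraries. Of all 44 fragments, 6 were above 1 and 10 below 1 in all 14 ES libraries, and 28 were on both sides. In limb libraries 15 were above 1 and 17 below 1 in all 4, and 12 were on both sides.

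In limb libraries the strongest were mHoxD_135 (1.53, range 1.44 to 1.64), mHoxD_137 (1.51, range 1.45 to 1.57) and mHoxD_156 (1.47, range 1.32 to 1.78). The weakest were mHoxD_165 (0.332, range 0.272 to 0.391), mHoxD_174 (0.359, range 0.307 to 0.397) and mHoxD_168 (0.479, range 0.460 to 0.502). The 44 strengths in ES and in limb libraries correlated at 0.83 over fragments, which share sequence and, as far as the names show, primers. A fragment's strength also ranked like its frequency with distant fragments outside the desert (Spearman correlation 0.87 in ES and 0.87 in limb cells over 44 fragments). The Pearson correlation of the same values was 0.40 in ES and 0.89 in limb cells, so the designs were alike by rank only.

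Strength was higher in longer fragments. The 12 fragments under 1 kb (182 to 873 bp) had a median of 0.522 in ES libraries and 0.629 in limb libraries, with 0 and 1 of them above 1. The 15 fragments of 1 to 4 kb had medians of 1.01 in ES and 0.895 in limb libraries. The 17 of 4 kb or more (4004 to 13825 bp) had medians of 1.34 in ES and 1.18 in limb libraries, with 15 and 16 of them above 1. The Spearman correlation of strength with length was 0.73 in ES and 0.70 in limb libraries over 44 fragments, and that with GC content was 0.20 in ES and 0.21 in limb libraries. The relation with length was as marked in the 5′ flank, at 0.81 over 41 fragments in ES and 0.74 over 42 in limb libraries. It is therefore not particular to the desert. The 2 strongest fragments, mHoxD_137 and mHoxD_135, are 13583 and 13671 bp long. Exceptions shown by sequence above include mHoxD_156, strong at 1259 bp, and mHoxD_165, weak at 3333 bp. Another is mHoxD_180, with a strength of 1.33 in ES and 1.31 in limb libraries at 1063 bp.

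**Figure D4:**
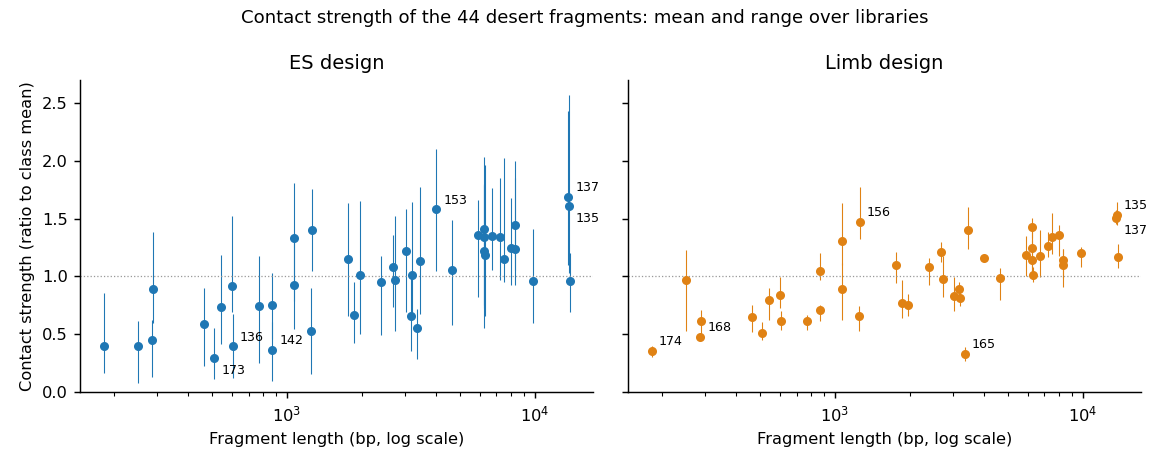
Contact strength of the 44 desert fragments (ratio to the mean of desert pairs at the same distance) against fragment length in bp on a log axis, with points at the mean and bars at the range over 14 ES (left) or 4 limb (right) libraries. Fragments under 1 kb lie mostly below 1 and those of 4 kb or more mostly above 1, and the numbers are the mHoxD_ names of the strongest and weakest fragments.

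Short fragments lie close together in one stretch, which stands out in the contact map. From mHoxD_167 to mHoxD_174 (chr2:74860658-74868822), 7 fragments have midpoints 144 to 152 kb from the start of the window, and 5 of them are under 1 kb long. Their strengths ran from 0.294 to 1.01 in ES libraries (median 0.590, against 1.13 for the other 37 fragments) and from 0.359 to 0.811 in limb libraries (median 0.612, against 1.10). In limb libraries 7 of the 7 were below 1, and in ES libraries 5 were, with mHoxD_169 and mHoxD_172 at 1.01. The run thus is a band of low contacts in limb cells and of mostly low contacts in ES cells. It was picked out after the map had been seen, and how much of it comes from fragment length was not tested apart from the correlation given above.

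**Figure D5:**
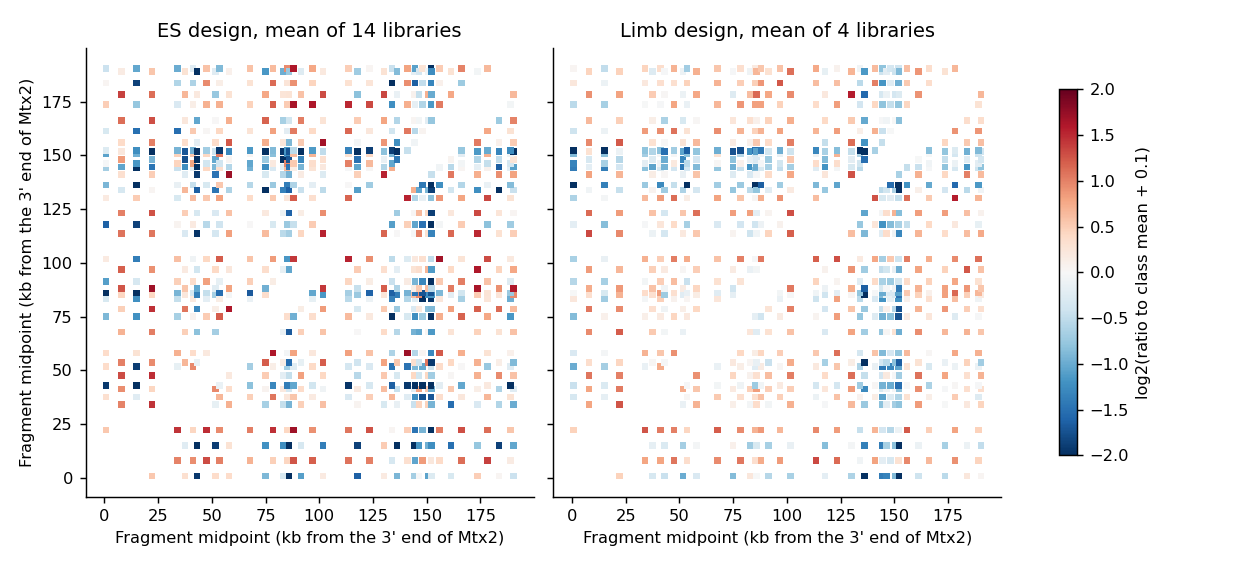
Mean ratio of each desert fragment pair to the mean of desert pairs at its distance, as log2(ratio + 0.1) in colour, with fragment midpoints on both axes in kb from the 3′ end of Mtx2, for 14 ES (left) and 4 limb (right) libraries. Red pairs are above the average for their distance and blue pairs below it. The band between 144 and 152 kb, mostly blue in both maps, is the run of mostly short fragments.

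Among pairs read in every ES library, the highest against the average of their distance class was mHoxD_146 with mHoxD_166, 83.1 kb apart, at 3.17 times on average. Its frequency over 14 libraries had a lowest value of 0.0146, a median of 0.383 and a highest of 0.874 reads per 1000. It was above average in 11 libraries. Its frequency was 0.874 and 0.555 in Eed-/- cells, 0.0888 and 0.480 in wild-type cells, and 0.158, 0.0146 and 0.107 in Ring1B-/- cells. Against the class average, wild-type libraries were at 0.808 and 4.88 times and Ring1B-/- libraries at 1.30, 0.109 and 1.22 times. In limb libraries the pair was at 1.38 times. The next were mHoxD_137 with mHoxD_153 (65.9 kb, 3.13 times, above average in 11 of 14), mHoxD_155 with mHoxD_179 (76.7 kb, 2.97 times, 14 of 14), mHoxD_153 with mHoxD_183 (102 kb, 2.96 times, 12 of 14) and mHoxD_146 with mHoxD_149 (20.5 kb, 2.96 times, 13 of 14). Only mHoxD_155 with mHoxD_179 was above average in all 14, with frequencies of 0.170 to 0.781 reads per 1000. As these 5 pairs were taken for their high values, no test is given.

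In limb cells the highest pair was mHoxD_163 with mHoxD_180, 48.1 kb apart, at 2.86 times the average of its class. It had 0.286 and 0.195 reads per 1000 in P2 and 0.271 and 0.821 in A2, with the highest value in A2 replicate 2. The next were mHoxD_135 with mHoxD_158 (106 kb, 2.40 times), mHoxD_156 with mHoxD_161 (21.6 kb, 2.35 times), mHoxD_163 with mHoxD_166 (10.8 kb, 2.32 times) and mHoxD_137 with mHoxD_139 (11.9 kb, 2.30 times). All 5 were above average in 4 of 4 limb libraries, and they were also above average in ES libraries, at 2.42, 2.03, 1.81, 2.80 and 2.61 times in the same order. The 5 ES pairs were at 1.24 to 1.73 times in limb libraries.

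Over 426 pairs, log2 ratios to the class mean correlated at 0.65 between the ES mean and the limb mean. The product of the strengths of its 2 fragments correlated with a pair's ratio at 0.82 in ES and 0.91 in limb libraries, a value that is high in part by construction, since each strength is a mean over the same ratios. After division by both strengths, the correlation between ES and limb means was 0.18. Between single ES libraries the 426 ratios correlated at 0.20 to 0.38 within a group and at 0.10 to 0.56 between groups, and the highest value was between the 2 shallowest libraries, GWT replicate 1 and G53. Libraries of 1 group thus were no more alike inside the desert than many libraries of different groups. All are descriptions over pairs that share fragments.

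To look for a border inside the desert, contacts across a point were set against contacts on one side of it at matched distance, within 60 kb of the point. At 100 kb from the start of the window the log2 ratio was below 0 in 11 of 14 ES libraries (median -0.25, range -0.56 to 0.37) and in 4 of 4 limb libraries (median -0.18, range -0.25 to -0.12). At 110 kb it was below 0 in 11 of 14 ES (median -0.59) and in 4 of 4 limb libraries (median -0.22). With primer factors the medians at 100 kb were -0.41 in ES (14 of 14 libraries below 0) and -0.28 in limb libraries (4 of 4), and those at 110 kb were -0.55 in ES (12 of 14) and -0.27 in limb libraries (4 of 4). Contacts across these 2 points thus were fewer with and without the factors in most ES libraries and in all 4 limb libraries. The 2 points were picked from a profile that runs from 30 to 160 kb. At 90 kb, also close to the midpoint of the desert, the result was weaker as deposited. There the ratio was below 0 in 10 of 14 ES (median -0.11) and 2 of 4 limb libraries (median 0.01). With primer factors it was below 0 in 12 of 14 ES (median -0.40) and 4 of 4 limb libraries (median -0.35).

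Other points of the profile also lay below 0. As deposited, 4 of 4 limb libraries were below 0 at 70, 120, 130, 140 and 150 kb too. Among these points that held with primer factors only at 150 kb. At 80 kb the ratio was below 0 in 13 of 14 ES libraries both as deposited (median -0.34) and with primer factors (-0.19), and in 3 of 4 limb libraries as deposited (-0.11) and 4 of 4 with the factors (-0.15), so the stretch near the midpoint is not the only one. At 120 kb the median was -0.35 in ES and -0.37 in limb libraries as deposited, but 0.09 in ES and 0.13 in limb libraries with primer factors. The dip is shallow beside the spread of single libraries, from -1.05 to 0.42 at 110 kb in ES libraries. Pairs on the same side of the midpoint were read 1.02 and 1.17 times as often as pairs that cross it in D3 cells, 1.16 and 1.63 times in UD cells, 1.02 and 1.56 in Eed-/- cells, 1.24 and 1.40 in GWT cells, 1.04 in the G53 library, 1.10, 1.26 and 1.07 in Ring1B-/- cells, and 1.05 and 1.05 in wild-type cells. P2 had 1.02 and 1.03 and A2 had 1.07 and 0.994. A mean over these classes without logs can order the pairs otherwise. By it, crossing pairs had 0.230 and 0.236 reads per 1000 in wild-type cells and 0.222 in A2 replicate 2, above both sides of these libraries. In the other libraries the crossing mean lay between the sides or below both. No comparison between groups passed for the ratio of same-side to crossing pairs, with D3 minus UD at -0.33 (95% interval -0.81 to 0.15, limma adjusted p = 0.262), Eed-/- minus wild type at 0.27 (-0.21 to 0.74, adjusted p = 0.309) and P2 minus A2 at -0.01 (-0.36 to 0.35, adjusted p = 0.963). The comparison of Eed-/- with wild type turned on single libraries, at 0.57 without Eed-/- replicate 1 (adjusted p = 0.0416) and -0.04 without Eed-/- replicate 2 (adjusted p = 0.857).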

How the data were processed

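Values are signals as deposited by the authors: for each pair of a forward and a reverse 5C primer, the reads of that pair divided by all reads of the run and multiplied by 1000. Per the study's methods, EcoRI 3C libraries were amplified with 5C primers, sequenced on an Ion Torrent PGM and counted with a Galaxy 5C pipeline, on mm9. The aligner was not given in the sources used here. No primers were designed for very large or very small fragments or for repeats, so parts of the desert are unread. Dividing by the smallest step of each matrix gave whole reads for every value to within 0.00001, which gave the depths, and replicate libraries differed by more than sampling noise.

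Primer direction was read from the contacts, a fragment's span was the widest given under its name, and genes and bases came from the mm9 reference (EcoRI sites were checked at all borders). Mean frequencies over region pairs, distance classes and bin pairs (minimum mean 0.02) were tested as log2(value + 0.02) with limma 3.58.1 in R 4.3.3, over all features and all libraries of a design, with Benjamini-Hochberg adjustment per comparison, a threshold of 0.05 and 95% intervals. Slopes and log2 ratios had no pseudocount. Fold changes on this scale understate changes of low values. Python 3.11.15, numpy 2.4.6, pandas 2.3.3, scipy 1.17.1 and matplotlib 3.10.9 did the rest, and the scripts were tested on simulated data. ES and limb designs were fitted apart. Tests of ratios against equality are described for HoxD and the 5′ flank only.

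The region, its comparisons and the rules for named bins, fragments and pairs were chosen with earlier results of these data known. Named were the 5 pairs read in every library of a design with the highest ratio to their distance class, the 3 strongest and 3 weakest fragments with at least 5 pairs, called bin pairs or, without a call, the 2 largest changes each way among bin pairs without overlap, and all annotated genes. Alternatives were pseudocounts of 0.005 and 0.1, scaling to pairs outside the desert, a minimum distance of 20 kb, pairs capped at the 95th percentile, 1 primer factor per fragment, slopes over single pairs, no minimum on bins, 30-kb bins, fits of 2 groups and leaving out each library. Primer factors were taken over distant partners outside the desert for means and slopes, and over those of the whole design for ratios. The naming style of the limb matrices as a block was added after seeing the data.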

Additional observations from a re-analysis of the deposited data

How the results depend on the processing

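Of the results under the planned and added settings other than leaving out a library, 296 kept their direction and side of the threshold, 34 changed sign, 16 gained a call, 7 lost one and 2 counts moved. When a library was left out, 242 were kept, 25 changed sign, 7 gained a call, 16 lost one and 5 counts moved. All differences here are on the log2 scale, and the cause of a change was not tested. No paired analysis was possible because the labels give no numbers that link libraries across groups. The naming style of the limb matrices as a block, added after seeing the data, changed no call.

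Scaled to pairs outside the desert, the mean differed by 0.45 for D3 against UD, 0.48 for Eed-/- against wild type, 0.39 for Ring1B-/- against wild type and -0.46 for GWT against Ring1B-/-. All 4 were now called, with a reference that includes HoxD, which moved between the same groups. The difference was -0.0022 for UD against wild type and -0.0048 for P2 against A2. Slopes changed sign with primer factors for Eed-/- (0.0078), Ring1B-/- (0.020) and UD (0.016) against wild type and for G53 (0.051) against Ring1B-/-. Over single pairs they did so for Eed-/- (0.035), G53 (0.024) and UD (0.047), and for UD also with pairs at least 20 kb apart (0.025) and with extreme pairs capped (0.010). None of these slopes was called.

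With pairs at least 20 kb apart, desert over 5′ flank was 0.50 in D3 against UD (called), -0.11 in Ring1B-/- against wild type and 0.13 in G53 against Ring1B-/-, and against equality 0.37 in D3 (called), 0.097 in G53 and 0.080 in wild type. Desert over interval was -0.14 in D3 against UD. Internal contacts over those with the interval were -0.76 in Eed-/- against wild type (called), -0.019 in Ring1B-/- against wild type and 0.083 in P2 against A2. Same side over crossing was -0.10 in Ring1B-/- against wild type, -0.10 in GWT against Ring1B-/- and 0.0074 in P2 against A2.

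With extreme pairs capped, desert over 5′ flank was 0.50 in D3 against UD (called) and 0.038 in Eed-/- against wild type, and against equality 0.41 in D3 (called), 0.069 in Ring1B-/- and 0.10 in A2. Desert over interval in Eed-/- (-0.31) and internal contacts over those with the interval in GWT (-0.27) lost their calls, and same side over crossing in GWT was -0.046.

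With primer factors, desert over 5′ flank was 0.49 in D3 against UD (called), 0.0043 in Eed-/- and -0.062 in Ring1B-/- against wild type. Against equality it was -1.41 in Eed-/-, -1.51 in UD, -1.48 in Ring1B-/-, -1.69 in G53, -1.66 in GWT, -1.42 in wild type, -1.02 in D3 and -0.17 in P2. Desert over HoxD was 0.68 in Eed-/-, 0.19 in D3, -0.26 in Ring1B-/-, 0.49 in A2 and 0.094 in P2. Desert over interval in Eed-/- (-0.34) and internal contacts over those with the interval in GWT (-0.27) lost their calls, and same side over crossing in GWT was -0.046. With only the 2 groups in the fit, desert over interval in Eed-/- (-0.50) and desert over HoxD in Ring1B-/- (1.24) lost their calls. The bin pair called in GWT against Ring1B-/- was lost with 30-kb bins, with 2 groups in the fit and without each library (0 called).

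Without 1 library, the mean ran from 0.26 to 0.61 in D3 against UD, -0.12 to 0.24 in UD against wild type and -0.12 to 0.18 in P2 against A2. The slope ran from -0.083 to 0.0056 in Eed-/-, -0.093 to 0.0030 in G53, -0.13 to 0.052 in UD and -0.051 to 0.12 in P2. Desert over 5′ flank ran from 0.25 to 0.61 in D3 against UD, -0.17 to 0.046 in Eed-/-, -0.12 to 0.026 in UD against wild type and -0.010 to 0.25 in P2 against A2. Against equality it ran from 0.052 to 0.41 in D3, -0.11 to 0.027 in Ring1B-/-, -0.036 to 0.027 in A2 and -0.015 to 0.24 in P2. Desert over interval ran from -0.087 to 0.18 in D3, -0.70 to -0.31 in Eed-/-, -0.043 to 0.062 in GWT, -0.34 to 0.051 in UD and -0.064 to 0.14 in P2. Desert over HoxD ran from 0.88 to 1.86 in D3, 1.05 to 1.59 in Ring1B-/-, -1.64 to -1.10 in GWT, -1.63 to -1.10 in G53, -0.31 to 0.68 in UD and -0.82 to -0.095 in P2. Against equality it ran from -1.42 to -0.92 in D3 and -0.96 to -0.83 in A2. Internal contacts over those with the interval ran from -0.31 to 0.0020 in D3, -0.52 to -0.30 in Eed-/-, -0.69 to -0.29 in GWT and -0.26 to 0.22 in P2. Same side over crossing ran from -0.041 to 0.57 in Eed-/- and -0.062 to 0.048 in P2. With 1 library left in a group, that library is assumed to vary like the other groups.

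The median desert pair had 3.5 to 284.5 reads in ES libraries, and an empty pair in an ES library is not shown to be a missing contact.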
